A study of Mus musculus with 7 samples.

Results

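Transcripts of 10 genes that mark the endothelium, the cell layer lining blood vessels, were compared between Zelnorm-treated and control tumours grown in mice from B16F10, a melanoma line that makes pigment. The genes, Pecam1, Cdh5, Esam, Emcn, Kdr, Flt1, Tek, Tie1, Vwf and Egfl7, were taken by name from the table of gene counts. All 10 were among its 21878 genes, and all 10 passed the filter on low counts, which left 12997 genes to test. The treated group comprised 4 tumours (libraries MBZ_9, MBZ_11, MBZ_13 and MBZ_15), whose hosts received oral Zelnorm, 1.25 mg/kg every 2 days. Zelnorm is a trade name of tegaserod, a drug that activates serotonin receptors of the gut. The control group, labelled NC, held 3 tumours (NC_5, NC_6 and NC_10), and the sources used here do not give what these mice received in place of the drug, the age of the animals or the length of treatment. Both groups were female C57BL/6J mice carrying the same single melanoma line, allotted at random once the tumours could be felt. The vessels of such a graft come from the host, and since graft and host are both mouse, reads of endothelial and tumour cells cannot be separated by species. The sources do not say that each library came from a mouse of its own, so the p-values measure only the spread between these samples, part of which may be technical.

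The endothelium holds together through junction proteins such as VE-cadherin (Cdh5) and PECAM-1, and it takes its growth and survival signals mainly through receptor tyrosine kinases of the VEGF and Tie families. In tumours, VEGF made by hypoxic tumour cells and angiopoietins drive the sprouting of new vessels. The messages of these genes are therefore widely used as a measure of how much endothelium a tissue sample contains, although PECAM-1 and von Willebrand factor also occur in platelets and PECAM-1 occurs on leukocytes.

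Library totals ran from 16903598 to 19666598 counts in the Zelnorm group and from 18079258 to 19547390 in the NC group. A count of 3, taken as the detection floor, was worth 0.153 to 0.177 CPM (the count scaled to a common library size), and this floor covers counting error only. The 10 members held between 45 and 1671 counts per library, far above it. The graft's identity was plain in every library, as Pmel, a melanosome matrix gene, lay between 6123 and 7293 CPM in Zelnorm tumours and between 5709 and 6708 CPM in NC tumours. Endothelial transcripts were present in every library too, and 31 of 32 other endothelial genes passed the filter. NC_10 stood apart from the other NC libraries in the identity genes, so results are given with and without it. NC_10 was thus picked out by these same values. Leaving out the highest control raises a gene's fold change by construction, so values and p-values without NC_10 are description only. Across the whole table the edgeR quasi-likelihood test called 4 genes higher in Zelnorm tumours and 0 lower at an adjusted threshold of 0.05, a share of 0.0308%. At an unadjusted p under 0.05 the share was 10.3%, made up of 6.94% higher and 3.38% lower.

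None of the 10 endothelial identity genes passed the test between the groups. The call count was 0 of 10 with edgeR, with DESeq2 and with limma voom, and 0 of 10 also at an unadjusted edgeR p under 0.05, where the share over all genes was 10.3% (6.94% higher, 3.38% lower). Their log2 fold changes, Zelnorm over NC, lay between -0.16 (Esam) and 0.12 (Vwf), with 5 above and 5 below zero and a median of -0.01. Over all genes tested the median was 0.00, and 50.2% were above zero. The edgeR adjusted p-values ran from 0.775 to 0.98. In no member did all Zelnorm libraries lie above or below all NC libraries. Over all genes 9.60% showed such a separation (5.33% with Zelnorm above, 4.27% with Zelnorm below), so 0 of 10 is close to that share. Leaving Tek aside, the 95% intervals of the fold changes stayed between 0.668 and 1.34, and the sparsely counted Tek had the widest, 0.625 to 1.74. In bulk tumour RNA, a smaller number of endothelial cells and less RNA per endothelial cell cannot be told apart, and neither was measured here.

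**Figure D1:**
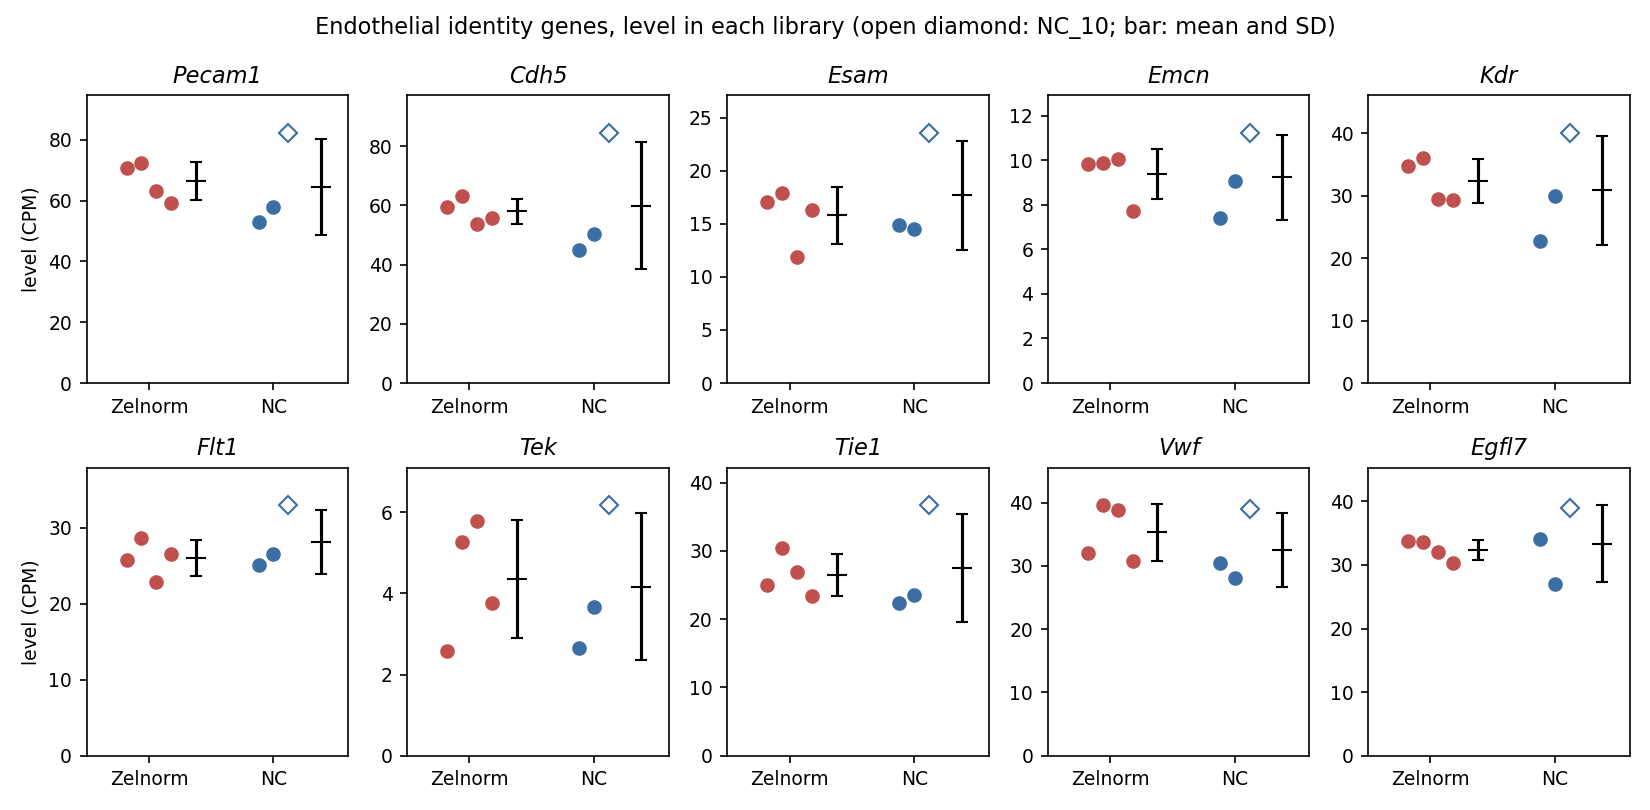
Level of each endothelial identity gene (vertical axis, CPM) in the 4 Zelnorm and 3 NC libraries, 1 point per library, with the group mean and SD as a bar; NC_10 is drawn as an open diamond. NC_10 is the highest library in 9 of the 10 panels, and the groups overlap in all 10.

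In the sum of the 10 members most of the spread among the controls came from NC_10. In Kdr, Emcn and Egfl7 the gap between NC_5 and NC_6 was also wide. NC_10 had the highest level of the 7 libraries in 9 of 10 members, the exception being Vwf, where MBZ_11 was slightly higher. NC_10 was the highest library in 13.0% of all genes tested. Summed over the 10 members, the level was 311, 337, 295 and 283 CPM in MBZ_9, MBZ_11, MBZ_13 and MBZ_15, against 257, 271 and 395 CPM in NC_5, NC_6 and NC_10. The treated tumours thus lay between the lower pair of controls and the highest one. For the median member, NC_10 was 1.50 times the mean of NC_5 and NC_6 and 1.25 times the Zelnorm mean. The coefficient of variation was larger in NC than in Zelnorm for all 10 members, for example 7.09% in Zelnorm and 35.8% in NC for Cdh5. This largely restates the NC_10 values, and the same share over all genes was not counted.

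The direction of the group difference depended on which libraries were used. Without NC_5, 9 of 10 members were below zero (median log2 fold change -0.15), and without NC_6 or without MBZ_11, 8 of 10 were (medians -0.10 and -0.056). The medians over all genes were 0.00029 without NC_5, -0.0012 without NC_6 and -8.2e-05 without MBZ_11. The members tended to move together, so such counts are not 10 separate results. By the members' sums, NC_5 and NC_6 were the lower controls and MBZ_11 was the highest treated tumour. Leaving out any of them thus lowers the fold changes by construction, and these values are description only. Without NC_10, all 10 log2 fold changes were above zero (0.01 to 0.46, median 0.23), while 49.9% of all genes were. None passed the adjusted threshold (smallest edgeR adjusted p = 0.208, for Cdh5), which 1.23% of all genes then passed. At an unadjusted edgeR p under 0.05 the picture was different: 4 of 10, Pecam1, Cdh5, Kdr and Vwf, were higher in Zelnorm at that level, beside 8.37% of all genes. NC_10 was picked out by the members and not by the other genes, so these shares are not a like comparison. Markers of some other cell types moved further in the same comparison without NC_10. The median log2 fold change was 1.12 over 10 fibroblast genes, 1.04 over 11 macrophage genes and 0.91 over 15 leukocyte genes. The 10 pigment cell genes moved less, with a median of 0.00059. The part of these cell types in the members' values was not tested. All Zelnorm libraries lay above both NC_5 and NC_6 in 3 members (Pecam1, Cdh5 and Vwf), as in 11.5% of all genes. Without the 3 libraries richest in skeletal muscle transcripts (MBZ_11, MBZ_15 and NC_5), which leaves 2 treated tumours against 2 controls, 9 of 10 members were below zero, with a median of -0.18 and a smallest edgeR adjusted p of 0.999. The median over all genes was then -0.0043. By the members' sums this takes out the lowest control (NC_5) and both the highest and the lowest treated tumour (MBZ_11 and MBZ_15). NC_10 is then 1 of 2 controls, so lower fold changes largely follow from the choice of libraries.

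**Figure D2:**
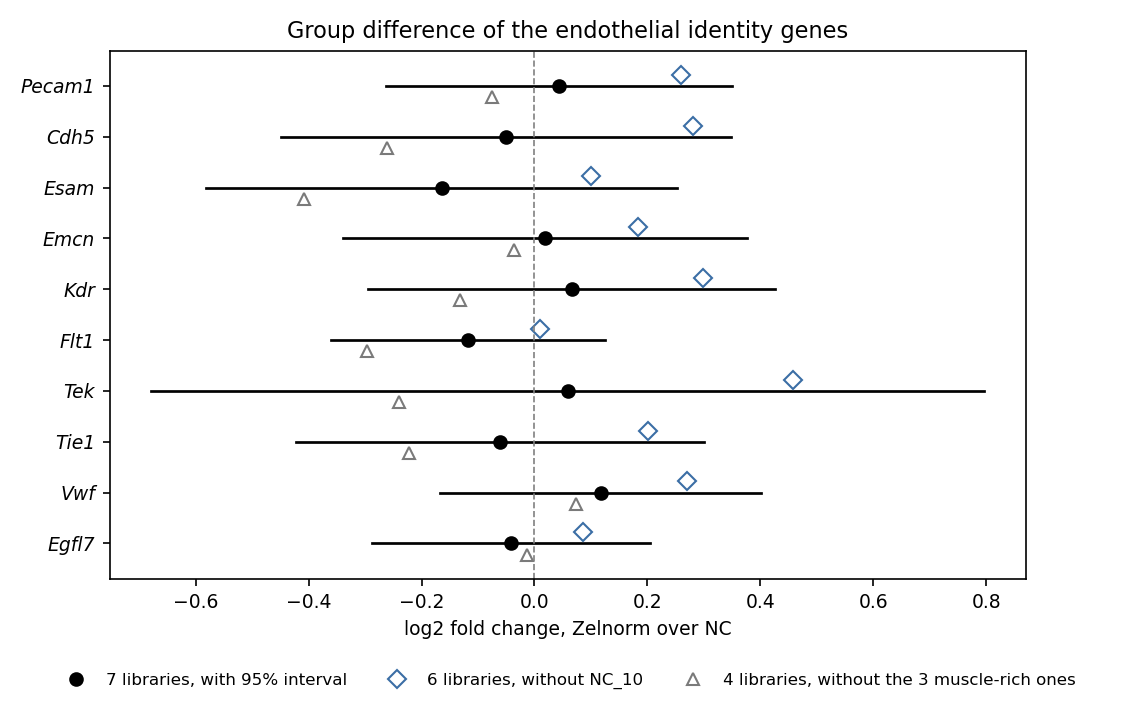
Log2 fold change of each endothelial identity gene, Zelnorm over NC (horizontal axis), with 95% intervals from edgeR over 7 libraries (filled circles), and the values without NC_10 (open diamonds) and without the 3 muscle-rich libraries (open triangles). Every interval crosses zero, all diamonds lie above zero, and 9 of 10 triangles lie below it.

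Among the junction and surface genes, Cdh5 showed the contrast most plainly. Cdh5 (GRCm38.p6 chromosome 8, 104101613 to 104144504) encodes VE-cadherin, the adhesion molecule of endothelial adherens junctions. Its level was 59.4, 63.0, 53.7 and 55.7 CPM in the Zelnorm libraries, against 44.9, 50.5 and 84.5 CPM in NC_5, NC_6 and NC_10. The treated tumours sat close together, above both lower controls and below NC_10. The means were 58.0 ± 4.11 CPM in Zelnorm and 60.0 ± 21.4 CPM in NC (SD, n = 4 and 3). On the log2 scale the fold change was -0.05 ± 0.18 (SE, edgeR adjusted p = 0.95), and it became 0.28 without NC_10.

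Pecam1 (chromosome 11, 106654213 to 106715281), which encodes the junctional adhesion molecule CD31, had the same layout. It measured 70.7, 72.4, 63.2 and 59.3 CPM in Zelnorm libraries, against 52.8, 58.0 and 82.3 CPM in NC_5, NC_6 and NC_10. The log2 fold change was 0.04 ± 0.14 (SE, edgeR adjusted p = 0.943), and 0.26 without NC_10. Leukocytes also carry CD31. Ptprc, the gene of the leukocyte antigen CD45, was at 19.6 ± 3.50 CPM in Zelnorm and 11.7 ± 3.21 CPM in NC (edgeR adjusted p = 0.202). Without NC_10, Ptprc passed the threshold, with a log2 fold change of 0.98 (edgeR adjusted p = 0.0252), and the part of leukocytes in the Pecam1 value was not tested.

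Esam (chromosome 9, 37528089 to 37538319), a tight-junction adhesion molecule of endothelium and platelets, stood at 17.0, 17.9, 11.9 and 16.3 CPM in Zelnorm tumours, against 14.9, 14.5 and 23.6 CPM in NC tumours. It had both the lowest value in MBZ_13 and the highest in NC_10, and its log2 fold change, -0.16 ± 0.19 (SE, edgeR adjusted p = 0.82), was the furthest below zero of the 10 genes. Without NC_10 that value was 0.10. Emcn (chromosome 3, 137341062 to 137431069) encodes endomucin, a sialomucin of capillary and venous endothelium. Its levels were 9.84, 9.89, 10.1 and 7.72 CPM in Zelnorm libraries, against 7.42, 9.08 and 11.2 CPM in NC libraries. The group means, 9.38 ± 1.11 CPM in Zelnorm and 9.24 ± 1.91 CPM in NC, differed by 0.02 ± 0.16 on the log2 scale (SE, edgeR adjusted p = 0.98).

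The 4 receptor genes encode the tyrosine kinases through which VEGF and angiopoietins act on endothelium. The sequence before the transcription start of each receptor gene is given here as a description, and shared regulation of these genes was not tested. ETS factors such as ERG and FLI1 are known regulators of endothelial genes and bind around a GGAA core. Each line holds the 250 bases before the start, 5′ to 3′ on the gene's strand, from RefSeq on GRCm38.p6, with GGAA or its reverse complement TTCC in capitals. The windows are chr5:75978456-75978705 (minus strand) for Kdr, chr5:147726012-147726261 (minus strand) for Flt1, chr4:94739039-94739288 (plus strand) for Tek and chr4:118489850-118490099 (minus strand) for Tie1. The Kdr and Flt1 windows lie wholly inside the annotated gene span and the Tek window reaches into it, since the start used is not the outermost one.
Kdr: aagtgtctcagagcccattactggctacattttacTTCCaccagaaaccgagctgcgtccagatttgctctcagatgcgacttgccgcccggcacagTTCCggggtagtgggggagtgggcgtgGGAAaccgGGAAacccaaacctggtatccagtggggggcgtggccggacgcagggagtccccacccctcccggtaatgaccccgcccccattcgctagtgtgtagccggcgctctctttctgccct
Flt1: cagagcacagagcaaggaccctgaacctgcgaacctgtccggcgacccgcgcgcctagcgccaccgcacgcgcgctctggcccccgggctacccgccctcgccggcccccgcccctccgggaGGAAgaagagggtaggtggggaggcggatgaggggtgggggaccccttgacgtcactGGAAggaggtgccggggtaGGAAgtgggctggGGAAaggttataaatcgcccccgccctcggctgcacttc
Tek: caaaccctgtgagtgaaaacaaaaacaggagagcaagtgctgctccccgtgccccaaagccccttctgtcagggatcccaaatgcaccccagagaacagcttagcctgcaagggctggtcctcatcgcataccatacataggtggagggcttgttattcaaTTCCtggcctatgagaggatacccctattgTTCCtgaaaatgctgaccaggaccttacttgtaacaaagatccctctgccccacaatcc
Tie1: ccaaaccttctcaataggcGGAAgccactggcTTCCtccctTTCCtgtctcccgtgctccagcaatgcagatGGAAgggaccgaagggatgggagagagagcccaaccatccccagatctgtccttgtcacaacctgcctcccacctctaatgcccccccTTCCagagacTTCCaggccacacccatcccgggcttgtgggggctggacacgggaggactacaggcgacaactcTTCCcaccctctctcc
The core occurred 4 times in the Kdr window, 4 times in Flt1, 2 times in Tek and 7 times in Tie1, counting both strands. Windows were held for 6 of the 10 members, with 8 windows in all, and each of the 8 had at least 1 core. So did 93.4% of the 32851 windows of all genes. The longer form AGGAAG, which contains the core, was found on either strand in 5 of the 8 windows (Flt1, Tie1, Emcn and 2 of the 3 Egfl7 windows) and in 29.5% of all windows. These matches describe letters in a window and do not show that a factor binds there.

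Kdr (chromosome 5, 75932827 to 75979072) encodes VEGFR2, the main signalling receptor for VEGF-A. Its level was 34.8, 36.1, 29.5 and 29.3 CPM in Zelnorm tumours, against 22.7, 29.9 and 40.1 CPM in NC_5, NC_6 and NC_10. NC_5 and NC_10 bracketed all treated tumours. The log2 fold change was 0.07 ± 0.16 (SE, edgeR adjusted p = 0.93), and 0.30 without NC_10. Flt1 (chromosome 5, 147561604 to 147726438) encodes VEGFR1, which binds VEGF-A tightly and also exists as a soluble decoy form that gene-level counts cannot separate. It measured 25.7, 28.7, 22.9 and 26.6 CPM in Zelnorm libraries, against 25.0, 26.5 and 32.9 CPM in NC libraries. Flt1 had the log2 fold change with the smallest adjusted p of the 10 genes, -0.12 ± 0.11 (SE, edgeR adjusted p = 0.775), and without NC_10 it was 0.01.

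Tie1 (chromosome 4, 118471191 to 118489849), an orphan receptor that modulates Tie2 signalling, was at 25.0, 30.5, 26.9 and 23.4 CPM in Zelnorm tumours, against 22.4, 23.5 and 36.7 CPM in NC tumours. NC_10 was again clear of the rest, and the log2 fold change was -0.06 ± 0.16 (SE, edgeR adjusted p = 0.936), or 0.20 without NC_10. Tek (chromosome 4, 94739086 to 94874976) encodes Tie2, the angiopoietin receptor. Its counts were low, 45, 89, 103 and 74 in Zelnorm libraries, against 49, 66 and 122 in NC libraries. This gave 4.35 ± 1.46 CPM in Zelnorm and 4.17 ± 1.81 CPM in NC (SD, n = 4 and 3). Both groups had a library near the bottom of the range, MBZ_9 and NC_5. The log2 fold change of Tek was 0.06 ± 0.33 (SE, edgeR adjusted p = 0.968), and 0.46 without NC_10.

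The remaining pair of genes encode secreted proteins. Vwf (chromosome 6, 125552948 to 125686679) encodes von Willebrand factor, stored by endothelial cells and platelets and needed for platelet adhesion. It stood at 32.1, 39.6, 38.8 and 30.7 CPM in Zelnorm libraries, against 30.4, 28.0 and 39.0 CPM in NC libraries. It was the one member in which treated tumours, MBZ_11 and MBZ_13, came level with NC_10, and its log2 fold change, 0.12 ± 0.13 (SE, edgeR adjusted p = 0.814), was the furthest above zero. Without NC_10 it was 0.27. Egfl7 (chromosome 2, 26581083 to 26592682) encodes an endothelial matrix protein with EGF-like domains. It was the most even of the 10 genes among treated tumours, with 33.7, 33.6, 32.0 and 30.4 CPM in Zelnorm libraries, against 34.0, 27.0 and 39.0 CPM in NC libraries. For Egfl7, as for Vwf, the lowest library was NC_6 and not NC_5. The log2 fold change of Egfl7 was -0.04 ± 0.11 (SE, edgeR adjusted p = 0.935).

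The members kept much the same order of level across the tumours. Divided by exonic length (union of coding-transcript exons in GENCODE M21), the level over all 7 libraries averaged 15.8 CPM per kb for Pecam1, 15.5 for Egfl7 and 14.0 for Cdh5. The order within this leading trio was not fixed, since Pecam1 was above Egfl7 in 5 of 7 libraries. A middle trio followed, with Esam at 6.59, Tie1 at 5.91 and Kdr at 5.36 CPM per kb. Emcn (3.60 CPM per kb) and Vwf (3.49 CPM per kb) did not separate, as Emcn was above Vwf in 3 of 7 libraries. Flt1, at 2.45 CPM per kb, ranked 9 and Tek, at 0.909 CPM per kb, ranked 10 in every library. The 4 steps from Cdh5 to Esam, from Kdr to Emcn, from Vwf to Flt1 and from Flt1 to Tek held in 7 of 7 libraries. The sources used here do not name the annotation the reads were counted on, so the lengths are approximate, and Flt1 and Vwf have the longest at 10961 and 9782 bases.

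The 10 genes tended to be high or low in the same tumours. Pearson correlations of log2 CPM between members across the 7 libraries were positive in 45 of 45 pairs, with a median of 0.70 and a range from 0.21 to 0.96. Without NC_10, 37 of 45 pairs were positive and the median was 0.46. These are descriptions of 7 points that share library composition. When each member was set against the mean of the other 9 in the same library, the difference between groups ranged from -0.17 (Esam) to 0.13 (Vwf) on the log2 CPM scale. No member passed an exact permutation test over samples (35 arrangements, 2-sided, smallest exact p = 0.257, for Flt1, adjusted p = 0.667 over 10 members, where the design allows 0.0286 at the least). At that least value a single member on its own could not pass after adjustment over 10 members, so the test could hardly find one. Tek varied most on this relative scale, from -3.46 in MBZ_9 to -2.23 in MBZ_13 among treated tumours and from -3.17 in NC_5 to -2.57 in NC_10 among controls. Pecam1 relative to the others stayed between 1.57 and 1.78 in Zelnorm libraries and between 1.56 and 1.59 in NC libraries.

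Of 32 further endothelial genes 31 were testable, and 0 passed the adjusted threshold with edgeR, DESeq2 or limma voom. At an unadjusted edgeR p under 0.05, 1 was higher (Icam2) and 1 lower (Cldn5). Their median log2 fold change was -0.0048, with 15 above and 16 below zero, and NC_10 was the highest library in 12 of 31. Icam2, an adhesion molecule of endothelium and leukocytes, was at 25.4, 21.6, 18.5 and 18.2 CPM in Zelnorm libraries, against 14.6, 17.5 and 12.9 CPM in NC libraries. All treated tumours were above all controls, and NC_10 was the lowest of the 7 libraries, unlike in the identity genes. The log2 fold change of Icam2 was 0.48 ± 0.14 (SE, edgeR adjusted p = 0.278). Cldn5, the main claudin of endothelial tight junctions, was at 5.58, 5.98, 6.42 and 4.93 CPM in Zelnorm libraries, against 4.50, 9.58 and 14.6 CPM in NC libraries. Its log2 fold change was -0.74 ± 0.31 (SE, edgeR adjusted p = 0.445), and -0.30 without NC_10. Tm4sf1, a tetraspanin-like surface gene also made by tumour cells, had 137 ± 10.7 CPM in Zelnorm and 152 ± 7.78 CPM in NC (edgeR adjusted p = 0.512). Without NC_10 the median of the 31 genes was 0.20 and 1 of them passed the adjusted threshold, Cd34, a sialomucin of vascular endothelium, which was picked out after its values were seen. Cd34 was at 39.9, 42.1, 39.5 and 40.2 CPM in Zelnorm libraries, against 29.8, 29.6 and 44.8 CPM in NC_5, NC_6 and NC_10. Its log2 fold change was 0.22 (edgeR adjusted p = 0.617) with all libraries and 0.44 (edgeR adjusted p = 0.0262) without NC_10.

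**Figure D3:**
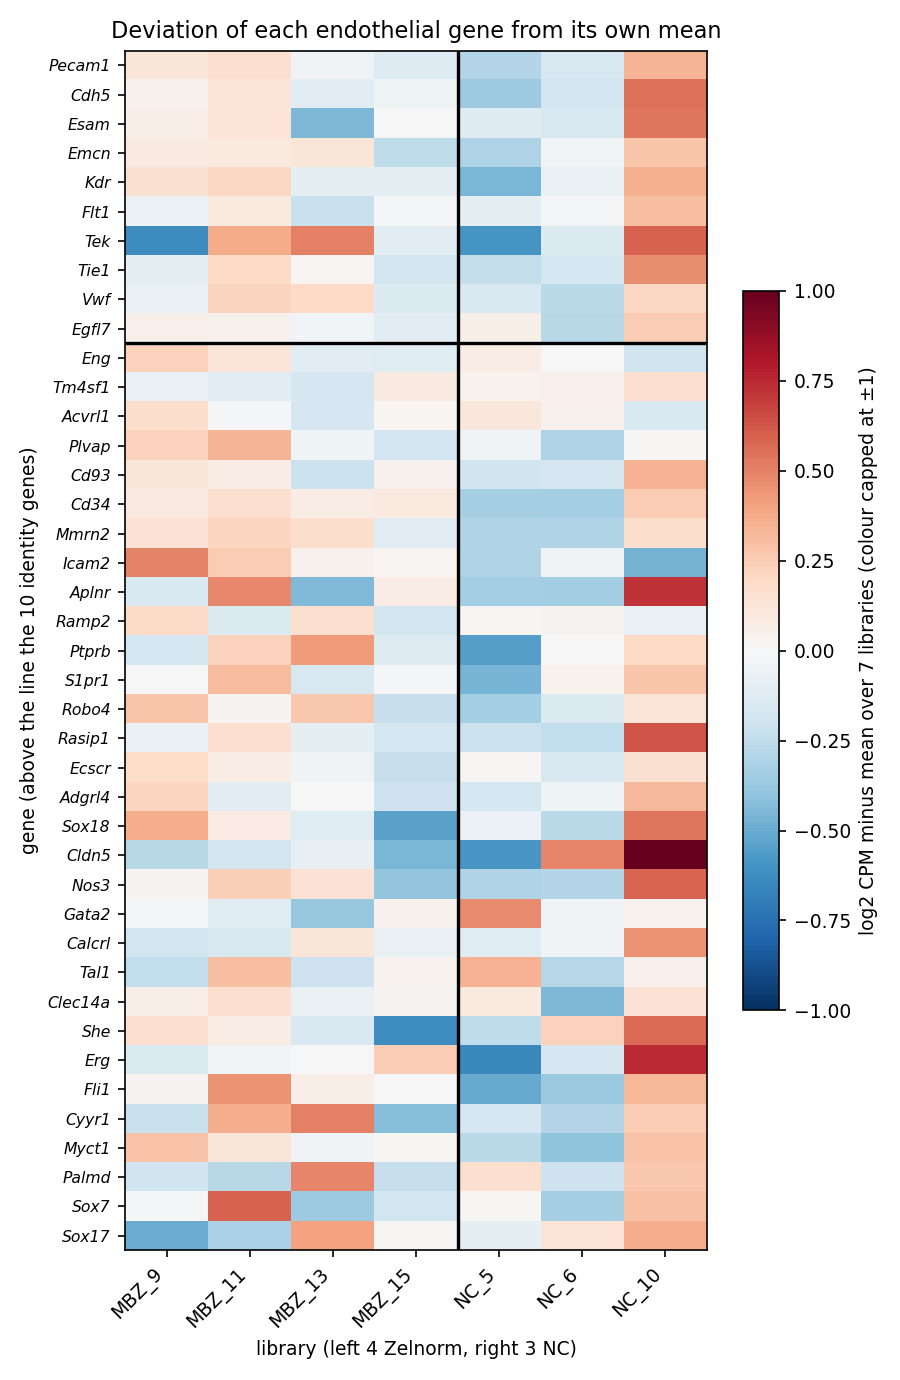
Deviation of log2 CPM from each gene's own mean over 7 libraries (colour, capped at ±1), for the 10 identity genes above the line and 31 other endothelial genes below it, ordered by level, with the 4 Zelnorm libraries to the left of the 3 NC libraries. NC_10 is the highest library for 9 of the 10 identity genes and for 12 of the 31 others, and the lowest for Icam2.

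Ligands and coreceptors of the same pathways were next examined. Of 11 such genes 10 were testable, 0 passed the adjusted threshold with edgeR, DESeq2 or limma voom, and 1 was lower at an unadjusted edgeR p under 0.05. That gene was Vegfa, which encodes the principal ligand of VEGFR1 and VEGFR2. It stood at 143, 139, 128 and 174 CPM in Zelnorm libraries, against 182, 164 and 163 CPM in NC libraries. Of the treated tumours 3 lay below all controls and MBZ_15 lay among them, and the log2 fold change was -0.22 ± 0.09 (SE, edgeR adjusted p = 0.464). None of the other VEGF family ligands passed the test. Vegfb averaged 105 ± 6.89 CPM in Zelnorm and 104 ± 2.73 CPM in NC, and Vegfc, a ligand of the lymphatic receptor VEGFR3, 10.2 ± 0.0601 CPM in Zelnorm and 10.7 ± 0.506 CPM in NC. Pgf, placental growth factor and a ligand of VEGFR1, averaged 30.9 ± 10.2 CPM in Zelnorm and 28.0 ± 6.02 CPM in NC, and Vegfd, another ligand of VEGFR3, 2.11 ± 0.544 CPM in Zelnorm and 1.72 ± 1.36 CPM in NC. The value of Vegfd was imprecise, with a log2 fold change of 0.29 (95% interval -0.71 to 1.29) that was 1.17 without NC_10.

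Of the Tie2 ligands, Angpt2, a context-dependent antagonist released by endothelium, averaged 43.3 ± 5.42 CPM in Zelnorm and 42.9 ± 1.53 CPM in NC (log2 fold change 0.02 ± 0.09, edgeR adjusted p = 0.969). Angpt1, the agonist made by mural cells, had only 23, 13, 21 and 23 counts in Zelnorm libraries, against 7, 20 and 4 counts in NC libraries (edgeR adjusted p = 0.551). The coreceptors Nrp1 (45.2 ± 4.78 CPM in Zelnorm and 39.1 ± 7.47 CPM in NC) and Nrp2 (409 ± 12.8 CPM in Zelnorm and 418 ± 26.0 CPM in NC) did not pass either, with edgeR adjusted p of 0.612 and 0.897. Flt4, the VEGFR3 gene, averaged 17.1 ± 0.743 CPM in Zelnorm and 19.2 ± 3.80 CPM in NC (edgeR adjusted p = 0.719). In the list of tip cell and Notch genes, which act in sprouting, 0 of 16 passed at the adjusted or the unadjusted edgeR threshold, or with DESeq2 or limma voom, and the median log2 fold change was 0.03. The smallest p there was that of Notch1 (log2 fold change 0.32 ± 0.20, edgeR adjusted p = 0.641).

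Adhesion molecules that inflamed endothelium displays to leukocytes had a median log2 fold change of 0.40 over the 4 testable genes of 6. None passed with edgeR or limma voom, 1 of 4 had an unadjusted edgeR p under 0.05, and DESeq2 called that gene, Vcam1 (DESeq2 adjusted p = 0.00309). Vcam1, which binds leukocyte integrins and is also made by stromal and myeloid cells, stood at 9.67, 11.8, 8.55 and 6.55 CPM in Zelnorm libraries, against 3.41, 4.96 and 5.11 CPM in NC libraries. Every treated tumour was above every control, and the log2 fold change was 1.02 ± 0.22 (SE, edgeR adjusted p = 0.152), or 1.13 without NC_10. Icam1 averaged 7.88 ± 1.91 CPM in Zelnorm and 5.64 ± 1.27 CPM in NC (log2 fold change 0.48 ± 0.22, edgeR adjusted p = 0.496). The endothelial selectin gene Sele was not testable. In the lymphatic list, 4 of 6 genes were testable, none passed with edgeR (0 also at an unadjusted p under 0.05), DESeq2 or limma voom, and the median was 0.00. Prox1, the transcription factor of lymphatic identity, averaged 4.91 ± 0.701 CPM in Zelnorm and 5.69 ± 0.678 CPM in NC. Lyve1, a hyaluronan receptor of lymphatic endothelium and some macrophages, had 122, 115, 111 and 126 counts in Zelnorm libraries, against 11, 40 and 156 counts in NC_5, NC_6 and NC_10. Its log2 fold change was 0.88 ± 0.56 (SE, edgeR adjusted p = 0.641), and 2.23 without NC_10, where it passed the threshold (edgeR adjusted p = 0.0252).

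Genes of the mural cells that wrap vessels had their highest level in NC_10 in 6 of 14 cases. All 14 were testable, and 0 passed with edgeR, DESeq2 or limma voom. Of these, 1 (Tagln) was higher at an unadjusted edgeR p under 0.05, and the median log2 fold change was 0.22, or 0.47 without NC_10. Pdgfrb, the PDGF receptor of pericytes, averaged 24.8 ± 1.55 CPM in Zelnorm and 23.5 ± 5.45 CPM in NC (log2 fold change 0.08 ± 0.13, edgeR adjusted p = 0.891). The contractile genes Acta2 (43.6 ± 5.54 CPM in Zelnorm and 34.0 ± 10.2 CPM in NC) and Tagln (18.9 ± 1.52 CPM in Zelnorm and 14.9 ± 3.90 CPM in NC) had log2 fold changes of 0.35 ± 0.17 and 0.34 ± 0.15 (edgeR adjusted p = 0.525 and 0.475). Kcnj8, a pericyte potassium channel gene, averaged 5.13 ± 0.548 CPM in Zelnorm and 6.76 ± 1.76 CPM in NC (log2 fold change -0.40 ± 0.19, edgeR adjusted p = 0.517). Without NC_10, Tagln was at 0.58 and passed the threshold (edgeR adjusted p = 0.0387).

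The other cell types in the grafts did not all follow the identity genes. Summed levels of 10 fibroblast genes were 1288 to 2529 CPM in Zelnorm tumours, against 722 and 822 CPM in NC_5 and NC_6 and 1877 CPM in NC_10. Summed levels of 11 macrophage genes were 484 to 705 CPM in Zelnorm tumours, against 280, 251 and 502 CPM in NC_5, NC_6 and NC_10. In both lists NC_10 thus lay inside the range of the treated tumours, whereas in the summed identity genes it lay above all of them. This contrast did not extend to the sum of the 32 other endothelial genes. That sum was 949 to 1117 CPM in Zelnorm tumours and 1043 CPM in NC_10, although by mean log2 CPM NC_10 was the highest in that list. Summed levels of 15 leukocyte genes were 586 to 834 CPM in Zelnorm tumours and 526 to 620 CPM in NC tumours. The median log2 fold changes were 0.65 for fibroblast, 0.71 for macrophage and 0.68 for leukocyte genes, with 0 calls by edgeR or limma voom in the 3 lists. Without NC_10, 7 of 10 fibroblast, 9 of 11 macrophage and 6 of 15 leukocyte genes passed the adjusted edgeR threshold, all higher in Zelnorm. Over all genes that share was 1.23%. NC_10 had the highest sum of the controls in all 3 lists, so leaving it out raises the group difference by construction. DESeq2 called 2 of 10 fibroblast genes (Dcn and Pi16), 2 of 11 macrophage genes (Ctss and Fcgr1) and 5 of 15 leukocyte genes (Ptprc, Coro1a, Itgb2, Cd52 and Cd53), all higher in Zelnorm (Cd52 and Cd53 are named because they were called). Over all genes DESeq2 called 213 of 12997. At an unadjusted edgeR p under 0.05, 4 fibroblast, 8 macrophage and 12 leukocyte genes were higher and 0 lower. The shares over all genes at that level were 6.94% higher and 3.38% lower.

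Pigment cell genes of the graft summed to 33614 to 36015 CPM in Zelnorm tumours and 30490 to 34632 CPM in NC tumours, with NC_10 the lowest of the 7. Their median log2 fold change was 0.06, and Mitf, the lineage transcription factor, was at 0.60 ± 0.16 (SE, edgeR adjusted p = 0.215). Skeletal muscle transcripts were uneven: the 15 genes summed to 74.7, 198, 59.4 and 420 CPM in Zelnorm libraries, against 98.0, 67.7 and 58.4 CPM in NC libraries. Acta1, the skeletal actin gene, ranged from 0.563 CPM in MBZ_13 to 103 CPM in MBZ_15 among Zelnorm libraries, and from 0.111 CPM in NC_6 to 14.2 CPM in NC_5 among NC libraries. NC_10, the library with the highest sum of the identity genes, had the lowest muscle sum, close to that of MBZ_13. By mean log2 CPM of the muscle genes, NC_6 was lower (-0.90) than NC_10 (-0.63). Of 10 platelet genes 3 passed the filter, and the chemokine gene Pf4, which macrophages can also make, averaged 8.98 ± 5.28 CPM in Zelnorm and 9.64 ± 9.41 CPM in NC. None of the 3 passed with edgeR (1, Itgb3, was higher at an unadjusted p under 0.05), DESeq2 or limma voom. The platelet sum was 105 to 125 CPM in Zelnorm and 90.6 to 109 CPM in NC and consisted mostly of Itgb3, an integrin gene also used by melanoma cells, at 107 ± 8.68 CPM in Zelnorm and 86.5 ± 16.2 CPM in NC. The 8 adipocyte genes summed to 54.2 to 388 CPM in Zelnorm and 67.9 to 173 CPM in NC, with a median log2 fold change of 0.58 and 0 calls by edgeR (0 also at an unadjusted p under 0.05), DESeq2 or limma voom. The 14 testable muscle genes had a median of 2.32 and the same 0 calls, with 6 higher at an unadjusted edgeR p under 0.05. At that level 6.94% of all genes were higher. Of the 10 pigment cell genes, 0 passed with any of these tools and 1 was higher at that unadjusted level. No gene of the lists was at 0 in all libraries. The part of these cell types in the endothelial values was not tested.

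**Figure D4:**
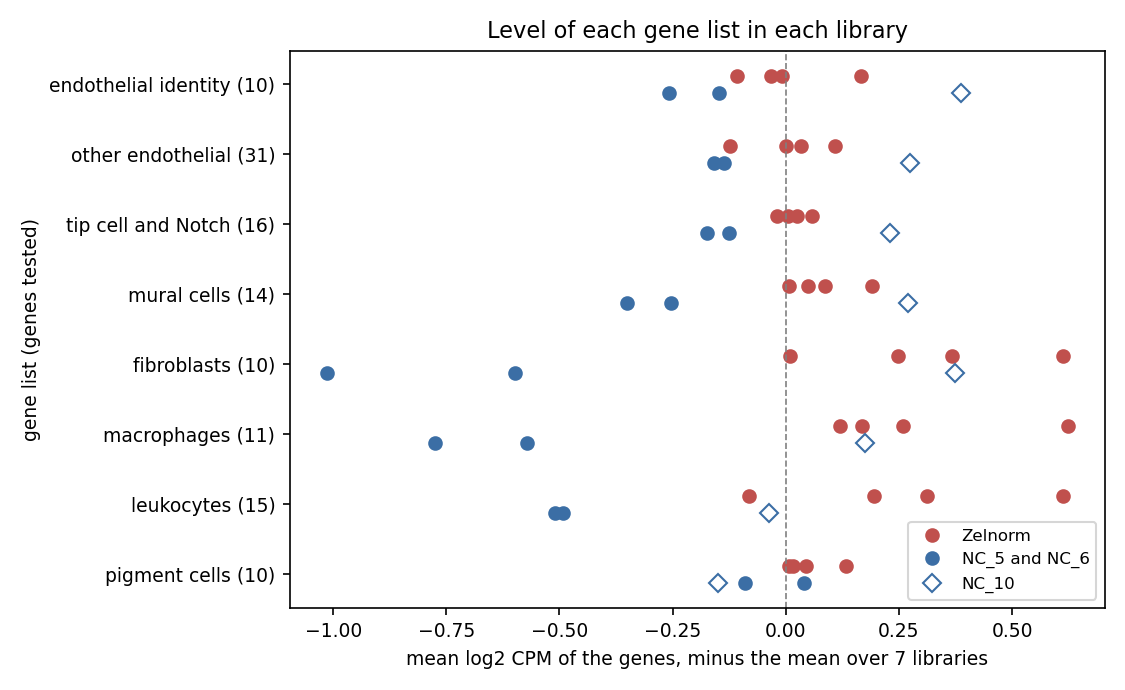
Mean log2 CPM of each gene list in each library, minus the mean over 7 libraries (horizontal axis), with Zelnorm libraries in red above the line of each list and NC libraries in blue below it; NC_10 is the open diamond. NC_10 is the highest library in the endothelial, tip cell and mural lists and the lowest in the pigment cell list, and NC_5 and NC_6 lie lowest in the fibroblast, macrophage and leukocyte lists.

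A search of the 11179 genes whose log2 CPM averaged 1 or more listed those whose pattern over the 7 libraries was most like the mean of the 10 members. The nearest 8 were Mgl2, Rasip1, Septin4, Itga6, Ehd2, Efnb2, Stard8 and Nos3, with Pearson r from 0.98 to 0.94. Rasip1, a regulator of endothelial junctions, and Nos3, the endothelial nitric oxide synthase, were on the list of endothelial genes, and Efnb2, the ephrin of arterial endothelium, was on the tip cell list. Mgl2, a C-type lectin gene of macrophages and dendritic cells, had 46, 82, 46 and 35 counts in Zelnorm libraries, against 20, 32 and 137 in NC_5, NC_6 and NC_10. All 8 were highest in NC_10, and without it their r with the members was between 0.85 and 0.99. None of the 8 passed the test between groups (edgeR adjusted p of at least 0.844). The 8 were chosen for their likeness to members that peak in NC_10 and do not differ between groups. Their peak, their r and the lack of a call therefore follow from the search.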

How the data were processed

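The authors deposited 1 table of raw counts of reads per gene for 7 libraries of B16F10 tumours, 4 Zelnorm and 3 NC. Per the labels' protocols, libraries were made from TRIzol-extracted RNA with the TruSeq Stranded mRNA kit. The submitters' processing notes name Trimmomatic, HISAT2, Cufflinks, HTSeq and DESeq, with GRCh38 and GRCm38, without versions or roles. The strand setting, annotation and filters were not given in the sources used here. Of 21878 genes, 21727 were found by identifier in the RefSeq gene table of GRCm38.p6, and 27 symbols turned into dates were restored. Library totals were 16903598 to 19666598 counts. Columns name the group but no replicate number.

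Genes passing filterByExpr (12997) were scaled by TMM (factors 0.986 to 1.01) and compared with edgeR 4.0.16 (quasi-likelihood test, Benjamini-Hochberg over all genes, threshold 0.05) in R 4.3.3, after a check on simulated counts. SE comes from the F statistic, intervals are 95%, and CPM are given as mean ± SD. Log2 CPM used a prior count of 2. No pair of libraries agreed within sampling noise (chi-square per degree of freedom 6.53 to 20.9). Alternatives were other scalings (RLE, upper quartile) and filters, DESeq2 1.42.0, limma 3.58.1 voom, and leaving out libraries. The members and lists were chosen with earlier results of these data known. Genes were named by a rule: the members, up to 3 genes per list with the smallest p, set markers, and VEGF and angiopoietin genes; some genes so picked (among them all adipocyte genes) are given only within counts. Figures used matplotlib 3.10.9.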

Additional observations from a re-analysis of the deposited data

Results flagged for a closer look

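In 2 of 44 genes checked among the 4 Zelnorm libraries, 1 library stood far from the other 3, by a ratio of gap to range above Dixon's 95% critical value for 4 samples, which chance exceeds in about 1 of 20 groups. Both concerned MBZ_15. Emcn was low there, at 7.72 CPM against 9.84 to 10.1 CPM in the other Zelnorm libraries (ratio 0.900). Pdpn, the podoplanin gene of lymphatic endothelium and fibroblasts, was high there, at 38.3 CPM against 30.9 to 31.6 CPM (ratio 0.902).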

How the results depend on the processing

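The count of identity genes past the threshold was 0 under every setting run. The count of members whose relative level differed was also 0 throughout. With all 7 libraries the exact permutation test allows 0.0286 at the least, so it could hardly find a member after adjustment. Without each library in turn that count (0 to 0) was fixed in advance, since the smallest exact p possible is 0.0667 or 0.1. The median log2 fold change of the members ran from -0.15 to 0.23 when each library was left out, the upper end without NC_10, and that of the other endothelial genes from -0.10 to 0.20. The members' signs changed with the libraries used: leaving out 1 library gave -0.082 to 0.26 for Pecam1, -0.22 to 0.28 for Cdh5, -0.29 to 0.10 for Esam, -0.12 to 0.18 for Emcn, -0.11 to 0.30 for Kdr, -0.20 to 0.010 for Flt1, -0.18 to 0.46 for Tek, -0.19 to 0.20 for Tie1 and -0.18 to 0.086 for Egfl7, while Vwf stayed above zero (0.01 to 0.27). Without the 3 muscle-rich libraries the values were -0.074 for Pecam1, -0.13 for Kdr, -0.24 for Tek, -0.035 for Emcn, -0.035 for Pdgfrb, -0.30 for Vegfd and -0.35 for Pgf, against values above zero with all libraries. Limma voom gave 0.17 for Pf4. Leaving out 1 library also turned Pf4 (-0.605 to 1.09), Pdgfrb (-0.054 to 0.28), Vegfb (-0.013 to 0.050), Vegfd (-0.012 to 1.17), Pgf (-0.090 to 0.32) and Angpt2 (-0.072 to 0.070). Of the relative levels, those of Cdh5 (-0.066 to 0.082), Egfl7 (-0.12 to 0.13), Emcn (-0.028 to 0.10) and Tek (-0.10 to 0.31) changed sign in this way, and Emcn was at -0.034 with Pecam1 as the base. The cause was not tested.

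Over all genes, 4 passed with edgeR, against 34 with no filter, 12 with a filter of 10 counts, 213 with DESeq2, 0 without the 3 muscle-rich libraries (547 at an unadjusted p under 0.05) and 0 to 161 without 1 library (0 without NC_5, 21 without MBZ_15, 161 without NC_10). Scaling by RLE or upper quartile changed no sign or call of a member. Low counts limit Tek, Angpt1, Vegfd and Lyve1, and 3 controls limit every interval. No paired analysis was possible because the columns hold no replicate number that the labels use.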
